A study of Mus musculus with 24 samples.

Results

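Bone morphogenetic protein (BMP) signalling was described in the mouse uterus through 10 genes. They were the ligands Bmp2, Bmp4 and Bmp7, the receptors Bmpr1a, Bmpr1b and Bmpr2, the secreted antagonist Grem1, and the target genes Id1, Id2 and Id3. All 10 were found by symbol in the deposited table of 22943 genes, and 9 of them passed the filter on low values, which Grem1 did not. RNA came from uteri of 21-day-old female C57bl/6 mice, in 4 groups. There were 4 libraries from Ctcf knockouts, named PgreCre+;Ctcf-f/f in the labels, 6 h after 0.5 mg of progesterone (P4) under the skin. Another 4 came from Ctcf-flox littermates without Cre after the same dose. The remaining 16 were vehicle libraries, 8 from knockouts and 8 from floxed littermates, 6 h after sesame oil alone. Every group carried the floxed Ctcf gene, which encodes a zinc finger protein that binds DNA and holds chromatin loops. Cre was expressed from the progesterone receptor gene Pgr and was present in the knockouts alone, so loss of Ctcf and the Cre allele cannot be told apart. Cells that do not express Pgr keep Ctcf in this model.

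BMP ligands are secreted proteins of the TGF-beta superfamily that bring together type I receptors such as Bmpr1a and Bmpr1b with type II receptors such as Bmpr2. The receptors phosphorylate the SMADs of the BMP branch, which enter the nucleus with Smad4 and switch on targets, among them the Id genes. In the mouse uterus, Bmp2 is known for its need in the stromal differentiation that follows implantation, and Bmpr1a for its need at implantation itself. Grem1 encodes gremlin, a secreted protein that binds BMP ligands and keeps them from their receptors.

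Values are batch-corrected RPKM (reads scaled by depth and by length in kilobases), a level per length of transcript. The mixed sequencing batch held 4 libraries of each group and the vehicle-only batch the other 8 vehicle libraries, and estimated depth ranged from 29900000 to 100600000 reads. Whether every library came from its own animal is not in the labels. The tests therefore speak for the spread among these libraries, which may be technical. Whether equal numbers on the labels mark paired samples was not settled, and every library was kept as a separate sample. Floxed vehicle libraries 1a and 1b, and knockout vehicle libraries 11a and 11b, were not compared with each other for this. Ctcf averaged 9.95 ± 0.98 RPKM in knockout and 26.0 ± 1.05 RPKM in floxed libraries after progesterone (SD, n = 4 each). Under vehicle it averaged 11.5 ± 1.11 RPKM in knockout and 25.9 ± 2.36 RPKM in floxed libraries (SD, n = 8 each), with no overlap. Stroma, smooth muscle and epithelium markers were present in every library. Some marker lists moved with genotype. The summed level of 7 leukocyte markers had a median of 117 RPKM in knockout and 58.5 RPKM in floxed vehicle libraries, and that of 5 epithelial markers 223 RPKM in knockout and 311 RPKM in floxed ones. After progesterone the leukocyte median was 134 RPKM in knockout and 64.2 RPKM in floxed libraries, and the epithelial median 290.0 RPKM in knockout and 267 RPKM in floxed ones. Summed over 6 endothelial markers, progesterone libraries ranged from 242.5 to 271.6 RPKM in the knockout and from 210.0 to 236.4 RPKM in the floxed group, without overlap. The 3 gland markers summed to a median of 1.05 RPKM in knockout and 7.52 RPKM in floxed vehicle libraries, with Prss29 under 0.5 RPKM in every knockout library. The part of these marker shifts in the values of the BMP genes was not tested, and in bulk tissue fewer cells of a type and less RNA per cell cannot be told apart.

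Across all 24 libraries the Id genes had the highest levels, with means of 66.7 RPKM for Id2, 59.0 RPKM for Id3 and 38.4 RPKM for Id1. Bmpr1a followed at 28.5 RPKM, above every library of Bmp7, which averaged 14.1 RPKM. Bmp7, Bmpr2 at 11.6 RPKM, Bmp4 at 10.9 RPKM and Bmp2 at 7.12 RPKM overlapped with their neighbours in this order, as Id1 did with Id3 and Bmpr1a. Bmpr1b averaged 1.37 RPKM, and Grem1, the lowest, 0.0381 RPKM. Id2 and Id3 overlapped widely, from 46.5 to 97.8 RPKM for Id2 and from 41.2 to 100.4 RPKM for Id3.

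**Figure D1:**
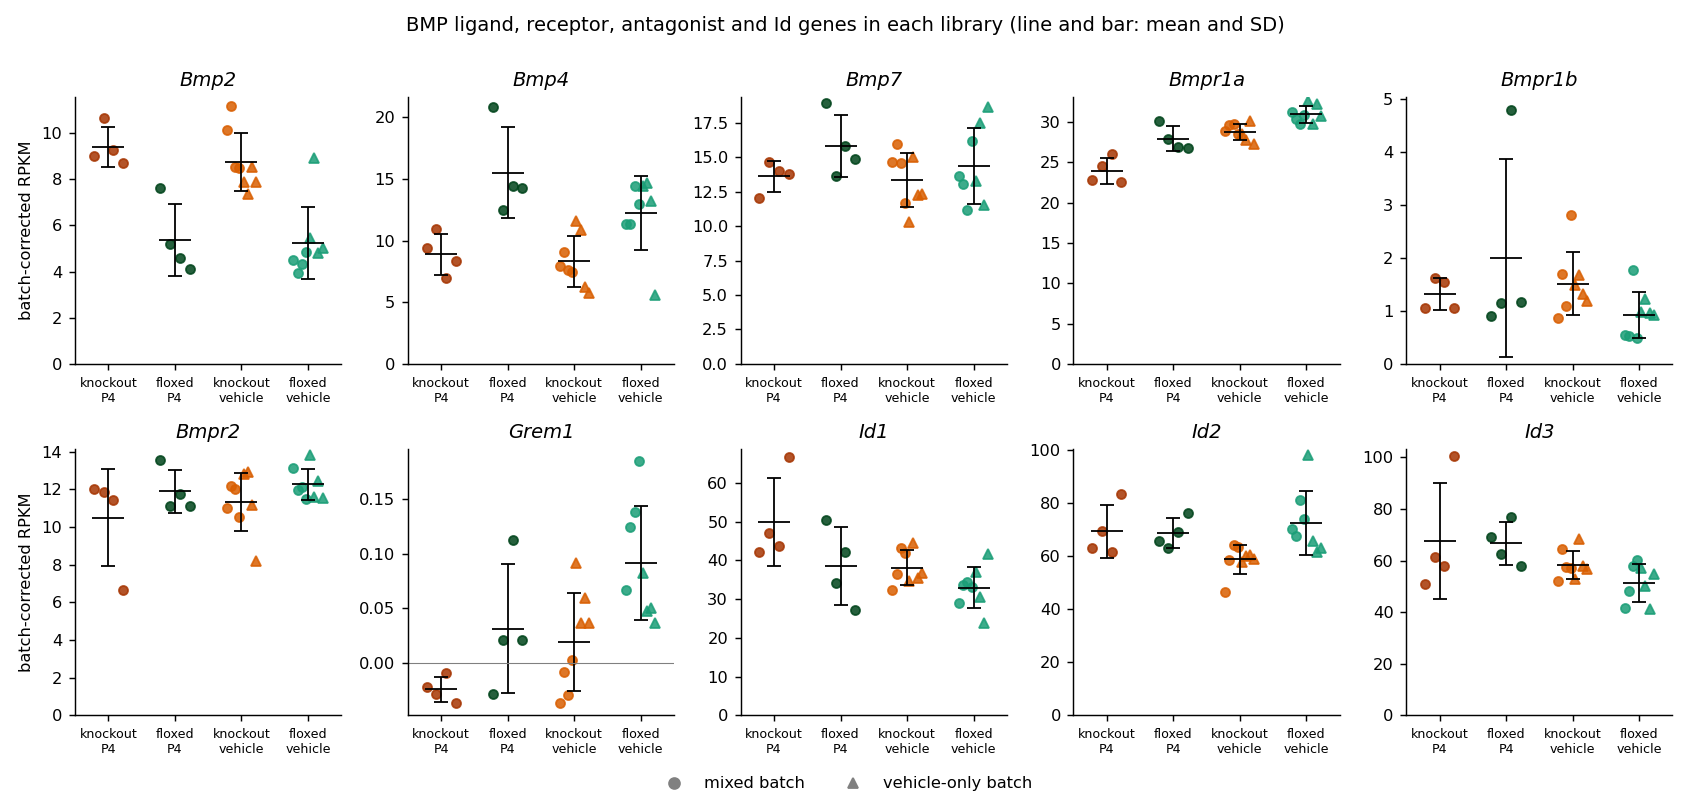
Batch-corrected RPKM of the 10 genes (y axes, linear, 1 scale per gene) in each library, by group from knockout progesterone to floxed vehicle (x axes); lines and bars are the mean and SD, circles the mixed batch and triangles the vehicle-only batch. Bmp2 sits higher and Bmp4 lower in most knockout libraries, Bmpr1a is lowest in the knockout progesterone group, and Grem1 stays close to 0.

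In GENCODE M21 (GRCm38) the ligand genes lie at chr2:133552159-133562885 (Bmp2, plus strand), chr14:46383520-46390669 (Bmp4, minus strand) and chr2:172868012-172940321 (Bmp7, minus strand). The receptor genes lie at chr14:34410734-34503341 (Bmpr1a, minus strand), chr3:141837136-142169425 (Bmpr1b, minus strand) and chr1:59763400-59879014 (Bmpr2, plus strand). Grem1 lies at chr2:113746164-113758646 on the minus strand, Id1 at chr2:152736251-152737410 and Id3 at chr4:136143497-136145755 on the plus strand, and Id2 at chr12:25093799-25097140 on the minus strand. Promoter sequence was available from RefSeq (GRCm38.p6) for 7 of the 10 genes, from 250 bases before the start of transcription to 50 after it. The 3 printed here belong to the genes that fell in the knockout in at least 1 comparison. Capitals mark GGCGCC, a GC-rich element that SMADs of the BMP branch can bind, which reads the same on both strands.
Bmp4 (chr14:46390620-46390919, minus strand): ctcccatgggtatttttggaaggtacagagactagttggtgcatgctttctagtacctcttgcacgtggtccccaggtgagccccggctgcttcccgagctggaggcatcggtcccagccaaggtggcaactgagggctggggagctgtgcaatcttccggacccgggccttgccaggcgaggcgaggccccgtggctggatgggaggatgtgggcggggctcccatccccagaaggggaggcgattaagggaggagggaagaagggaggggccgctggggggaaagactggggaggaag
Bmpr1a (chr14:34502497-34502796, minus strand): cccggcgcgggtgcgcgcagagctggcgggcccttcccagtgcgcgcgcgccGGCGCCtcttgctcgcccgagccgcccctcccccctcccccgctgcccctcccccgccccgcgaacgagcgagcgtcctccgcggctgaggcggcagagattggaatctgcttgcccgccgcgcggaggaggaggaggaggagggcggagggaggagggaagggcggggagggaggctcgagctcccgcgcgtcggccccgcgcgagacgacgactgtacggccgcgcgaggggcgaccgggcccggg
Id2 (chr12:25096043-25096342, minus strand): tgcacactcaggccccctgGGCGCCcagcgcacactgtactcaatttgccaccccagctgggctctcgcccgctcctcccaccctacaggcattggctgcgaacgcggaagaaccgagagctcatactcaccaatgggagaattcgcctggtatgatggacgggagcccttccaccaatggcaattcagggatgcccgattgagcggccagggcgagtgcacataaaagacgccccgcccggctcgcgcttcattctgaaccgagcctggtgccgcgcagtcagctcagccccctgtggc
GGCGCC began at position -198 from the start in Bmpr1a and at -231 in Id2, and it was not in the Bmp4 window. It was also in the windows of Bmpr2 and Grem1, and in 11.9% of 32851 promoters of the same length. These windows are rich in G and C, at 79.3% for Bmpr1a, 64.0% for Bmp4 and 63.3% for Id2, against a median of 52.7% over all promoters. A palindromic progesterone response element, in 0.475% of all promoters, and a loose form of the CTCF core, in 8.61%, were searched on both strands as well. Neither had a match in these 3 windows, and the CTCF core matched in windows of Bmpr1b. A match is a description of letters and not a bound site.

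Between genotypes under vehicle, 1 of the 9 tested genes was higher in the knockout (Bmp2) and 2 were lower (Bmp4 and Id2), where 24.6% of all 14284 tested genes were called in either direction. After progesterone, Bmp2 was again higher and Bmp4 and Bmpr1a were lower, 3 of 9 against 19.4% of all tested genes. With so many genes called, these counts do not set the BMP genes apart from the rest of the table. A gene was called at a Benjamini-Hochberg adjusted p under 0.05 in limma, over all tested genes.

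**Figure D2:**
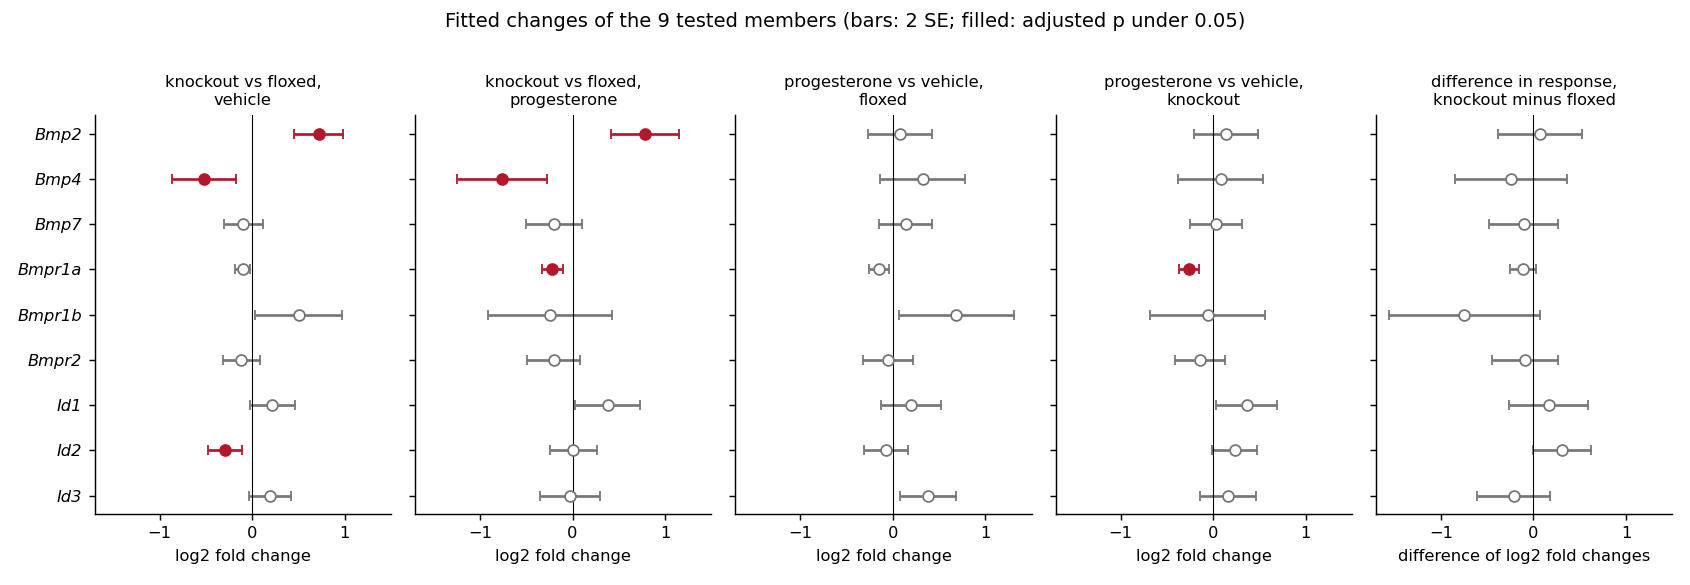
Fitted log2 fold change (x axes; last panel, the difference of 2 log2 fold changes) of the 9 tested genes (y axis) in 5 comparisons, with bars of 2 SE and filled red points for an adjusted p under 0.05. Bmp2 lies to the right of 0 and Bmp4 to the left in both comparisons of genotypes, and Bmpr1a lies left of 0 in the first 4 panels.

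Among the ligands, Bmp2 was the member with the most separate groups. In knockout libraries after progesterone it stood at 8.99, 10.7, 9.28 and 8.70 RPKM, and in floxed libraries after progesterone at 7.63, 5.2, 4.57 and 4.13 RPKM. All 4 knockout libraries were above all 4 floxed ones. Bmp2 thus had a log2 fold change of 0.78 ± 0.18 (SE; limma adjusted p = 0.00418), a fitted fold of 1.72. An exact two-sided permutation test of the RPKM difference gave p = 0.0286, the smallest that 4 against 4 libraries allow.

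Under vehicle Bmp2 ranged from 7.37 to 11.2 RPKM in knockout libraries, with a median of 8.49 RPKM, and from 3.93 to 8.92 RPKM in floxed libraries, with a median of 4.83 RPKM. Only floxed library 7, at 8.92 RPKM, reached into the knockout range. The log2 fold change was 0.72 ± 0.13 (limma adjusted p = 0.000239), or 1.64-fold, with an exact permutation p of 0.00204 when libraries were permuted within batches. It stayed called when each of the 24 libraries was left out in turn, between 0.66 and 0.83. In the mixed batch Bmp2 averaged 9.57 ± 1.32 RPKM in knockout and 4.4 ± 0.38 RPKM in floxed libraries (SD, n = 4 each). In the vehicle-only batch, which holds floxed library 7, the means were 7.92 ± 0.47 RPKM in knockout and 6.05 ± 1.93 RPKM in floxed libraries. Fitted alone, that batch gave a log2 fold change of 0.40 ± 0.18 that was not called (limma adjusted p = 0.25).

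Bmp4, the ligand closest in sequence to Bmp2, moved the other way. After progesterone it stood at 9.39, 10.9, 6.98 and 8.31 RPKM in knockout libraries and at 20.9, 12.5, 14.4 and 14.3 RPKM in floxed libraries, with no overlap. This gave a log2 fold change of -0.76 ± 0.24 (limma adjusted p = 0.0322; exact permutation p = 0.0286). Under vehicle Bmp4 ranged from 5.72 to 11.6 RPKM in knockout libraries, with a median of 7.78 RPKM, and from 5.57 to 14.7 RPKM in floxed libraries, with a median of 13.1 RPKM. The ranges overlapped. Floxed library 12, at 5.57 RPKM, was the lowest of all 24, and knockout library 4, at 11.6 RPKM, stood above floxed libraries 1b and 2, at 11.4 and 11.3 RPKM. Under vehicle the fitted log2 fold change was -0.52 ± 0.17 (limma adjusted p = 0.0312; exact permutation p = 0.0159).

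Both Bmp4 calls lie close to the threshold. The vehicle call was lost without any 1 of knockout libraries 9, 11a, 11b, 12 or 13 or floxed libraries 1a, 3, 4, 7 or 10, at log2 fold changes from -0.51 to -0.45 and limma adjusted p from 0.0508 to 0.0688. The progesterone call was lost without any 1 of knockout libraries 6 or 8 or floxed libraries 1, 7 or 9, at log2 fold changes from -0.79 to -0.61 and limma adjusted p from 0.0508 to 0.104. Without the 5 libraries with oviduct or squamous epithelium markers neither was called, at -0.45 ± 0.22 under vehicle and -0.76 ± 0.32 after progesterone (limma adjusted p = 0.168 and 0.122). These 5 were knockout vehicle libraries 9 and 12, floxed vehicle library 3, knockout progesterone library 8 and floxed progesterone library 7. Of the oviduct markers, floxed vehicle library 3 was high in Ovgp1 (145.7 RPKM) and not in Foxj1 (-0.12) or Tekt1 (0.046). Squamous markers summed to 18.2 RPKM in library 8 and to 10.4 RPKM in floxed vehicle library 2, which was kept. Whether the markers or the smaller number of libraries ended the calls was not tested. Without floxed vehicle library 12 the vehicle value was -0.67. The vehicle-only batch fitted alone gave -0.42 ± 0.33 (limma adjusted p = 0.582). Without knockout progesterone library 8 and knockout vehicle library 13, left out together after the data were seen, the values were -0.45 ± 0.18 under vehicle and -0.74 ± 0.27 after progesterone (limma adjusted p = 0.0726 and 0.0576). In the mixed batch Bmp4 under vehicle averaged 8.03 ± 0.75 RPKM in knockout and 12.5 ± 1.49 RPKM in floxed libraries, and in the vehicle-only batch 8.61 ± 3.04 RPKM in knockout and 12 ± 4.3 RPKM in floxed libraries (SD, n = 4 each). Adipose markers, with values below 0 set to 0, summed to 0 RPKM in floxed library 12 and also in floxed library 1a, where Bmp4 was 14.4 RPKM. In the same batch, knockout libraries 4 and 5 had adipose sums of 211 and 607 RPKM and Bmp4 at 11.6 and 10.9 RPKM. Knockout libraries 11a and 13 had sums of 9.68 and 81.3 RPKM and Bmp4 at 6.28 and 5.72 RPKM. After progesterone the highest sum of each genotype was 427 RPKM in floxed library 1 and 270 RPKM in knockout library 6. Bmp4 was the highest of its group in the former, at 20.9 RPKM, and the lowest in the latter, at 6.98 RPKM. The part of adipose tissue in the Bmp4 values was not tested.

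The opposite directions showed most plainly in the ratio of the pair within a library, a measure chosen after the values were seen and so given with no test. Bmp2 over Bmp4 was 1.08 ± 0.17 in knockout and 0.347 ± 0.06 in floxed libraries after progesterone (SD, n = 4 each). In the mixed batch under vehicle it was 1.19 ± 0.07 in knockout and 0.353 ± 0.04 in floxed libraries. The vehicle-only batch had 1.02 ± 0.40 in knockout and 0.564 ± 0.25 in floxed libraries, and there the ranges overlapped, since knockout libraries 4 and 5 stood at 0.682 and 0.677 and floxed library 12 at 0.904.

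**Figure D3:**
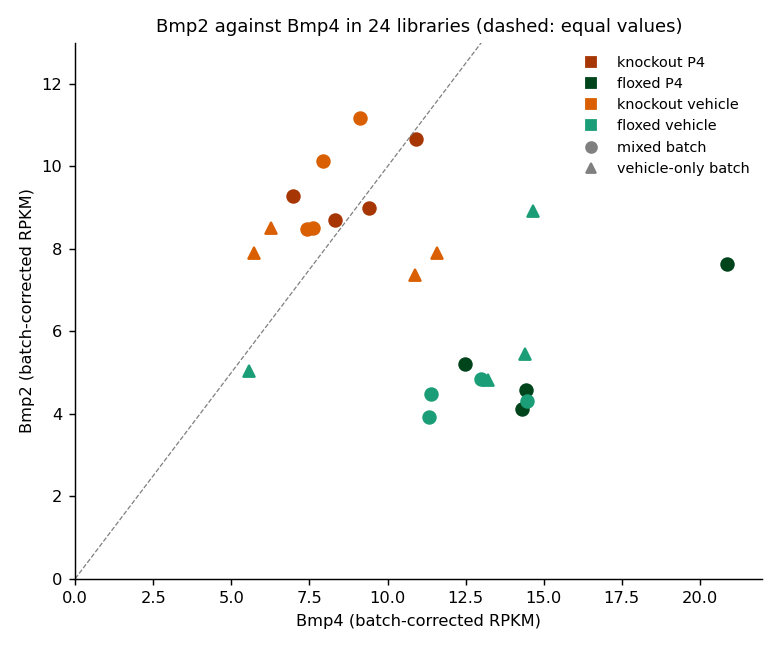
Bmp2 against Bmp4 in each of the 24 libraries, in batch-corrected RPKM on linear axes, coloured by group and shaped by batch, with a dashed line where both are equal. Knockout libraries lie near or above the line except vehicle libraries 4 and 5, and floxed libraries lie below it, nearest in vehicle library 12 with 5.04 RPKM of Bmp2 and 5.57 RPKM of Bmp4.

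Bmp7, a ligand of another branch of the family, was the most abundant of the 3 and did not pass the test in any comparison. It stood at 12, 14.6, 14.0 and 13.7 RPKM in knockout libraries after progesterone, and at 18.9, 13.6, 15.8 and 14.9 RPKM in floxed ones, which overlapped. The log2 fold change of knockout over floxed was -0.20 ± 0.15 after progesterone (limma adjusted p = 0.387) and -0.10 ± 0.11 under vehicle (limma adjusted p = 0.574). With 2 SE on either side the vehicle difference lay between -0.31 and 0.12. Summed over Bmp2, Bmp4 and Bmp7, the level was 31.9 ± 2.88 RPKM in knockout and 36.7 ± 7.28 RPKM in floxed libraries after progesterone. Under vehicle in the mixed batch it was 31.8 ± 3.65 RPKM in knockout and 30.4 ± 2.47 RPKM in floxed libraries, and in the vehicle-only batch 29.0 ± 3.27 RPKM in knockout and 33.3 ± 5.50 RPKM in floxed libraries. These sums overlapped between genotypes in each batch.

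Of the receptors, the type I receptor Bmpr1a was lowest where both changes met. It stood at 22.7, 24.5, 26.0 and 22.5 RPKM in knockout libraries after progesterone and at 30.1, 27.9, 26.9 and 26.8 RPKM in floxed libraries after progesterone. Under vehicle it ranged from 27.2 to 30.0 RPKM in knockout libraries, with a median of 28.7 RPKM, and from 29.7 to 32.5 RPKM in floxed libraries, with a median of 30.8 RPKM. No knockout progesterone library reached any library of the other 3 groups.

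The knockout was lower than the floxed group after progesterone by a log2 fold change of -0.22 ± 0.06 (limma adjusted p = 0.00864; exact permutation p = 0.0286), a fitted fold of 0.859. Under vehicle the difference was -0.10 ± 0.04, which missed the threshold in limma (adjusted p = 0.0688), although 7 of 8 knockout libraries lay below all 8 floxed ones and the exact permutation test within batches gave an unadjusted p of 0.00163. Left out, knockout progesterone library 8 brought the vehicle comparison past the threshold (limma adjusted p = 0.0483) at the same log2 fold change. Progesterone over vehicle was -0.26 ± 0.05 in the knockout (limma adjusted p = 0.00297; exact permutation p = 0.0286) and -0.15 ± 0.05 in the floxed group (limma adjusted p = 0.0518). Bmpr1a was the 1 gene of 9 called for progesterone in the knockout, where 8.67% of all tested genes were called. Its difference in response between genotypes was -0.12 ± 0.07 and was not called (limma adjusted p = 0.491), so the data do not show a stronger response in the knockout.

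Those Bmpr1a changes are small, and several depend on which libraries are kept. Without the 5 libraries with oviduct or squamous epithelium markers, the response in the knockout was -0.25 ± 0.07 and no longer called (limma adjusted p = 0.06). In the floxed group the response passed the threshold without knockout progesterone library 6 or 8, floxed progesterone library 1, knockout vehicle library 11a or floxed vehicle library 12, at log2 fold changes from -0.18 to -0.15 and limma adjusted p from 0.024 to 0.0481.

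Bmpr1b, the other type I receptor of the set, was low and uneven. It stood at 1.06, 1.62, 1.54 and 1.05 RPKM in knockout libraries after progesterone, and at 0.908, 1.14, 4.80 and 1.17 RPKM in floxed ones, where library 7 stood far above the rest. Under vehicle it ranged from 0.865 to 2.81 RPKM in knockout libraries and from 0.491 to 1.76 RPKM in floxed libraries. The 3 highest libraries were floxed progesterone library 7, knockout vehicle library 12 and floxed vehicle library 3. The same 3 had the highest summed oviduct markers, at 401.1, 213.9 and 145.8 RPKM. Ovgp1, the oviduct glycoprotein, made up most of these sums, and in the other mixed-batch libraries it was at 0.156 RPKM or below 0 after the correction. Whether oviduct tissue contributes to the Bmpr1b values was not tested.

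The log2 fold change of Bmpr1b in knockout over floxed libraries under vehicle was 0.50 ± 0.24, not called (limma adjusted p = 0.129). Without the 5 libraries with oviduct or squamous markers it was 0.53 ± 0.12 and was called (limma adjusted p = 0.00462), and without floxed progesterone library 7 alone it was also called (limma adjusted p = 0.0408). After progesterone it was -0.24 ± 0.33 with all libraries and 0.20 ± 0.27 without floxed library 7, and neither was called (limma adjusted p = 0.66 and 0.678).

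The type II receptor Bmpr2 did not pass in any comparison. It stood at 12, 11.9, 11.4 and 6.65 RPKM in knockout libraries after progesterone and at 13.5, 11.1, 11.8 and 11.1 RPKM in floxed ones. Under vehicle it ranged from 8.18 to 12.9 RPKM in knockout libraries and from 11.5 to 13.8 RPKM in floxed libraries. The 2 low values came from knockout progesterone library 8 and knockout vehicle library 13. Bmpr2 has the longest transcribed exons of the 10 genes, 17983 bases in GENCODE M21, and in these 2 libraries long genes were low as a class. The 1394 longest tested genes, set against the 1394 shortest, deviated by a median log2 of -0.77 in library 8 and -0.30 in library 13. In the other libraries this lay between -0.11 and 0.12. Without library 8 the progesterone comparison of genotypes was -0.01 ± 0.11 in place of -0.21 ± 0.14, and neither was called (limma adjusted p = 0.963 and 0.356). The part of transcript length in the Bmpr2 values was not tested.

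**Figure D4:**
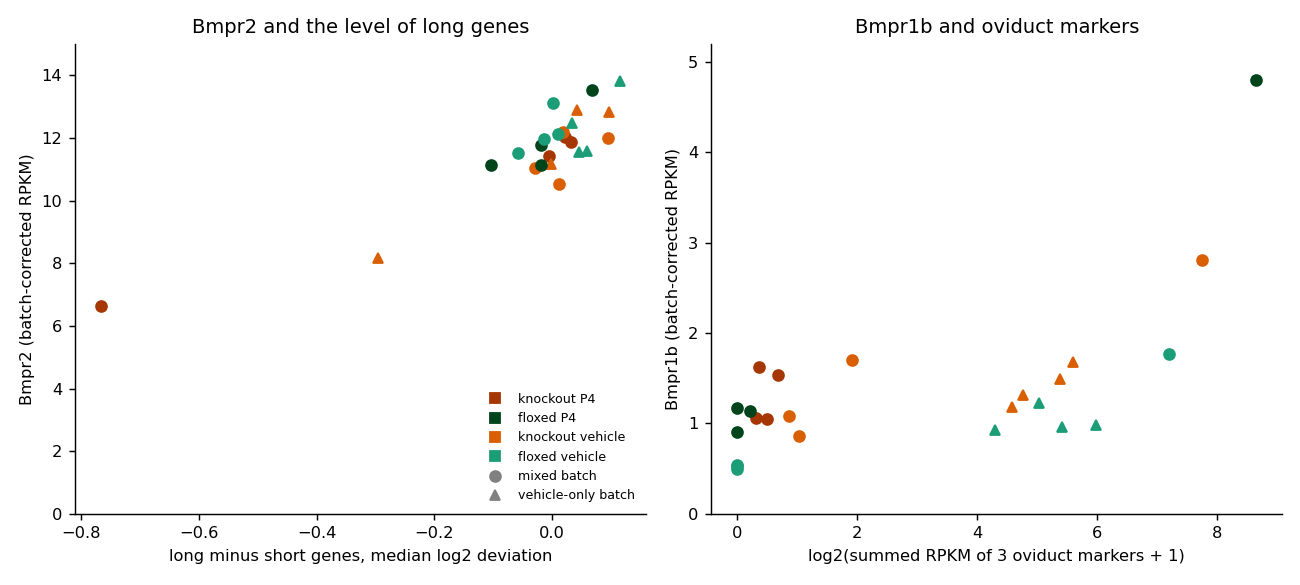
Left, Bmpr2 in RPKM (y axis) against the median log2 deviation of long genes minus that of short genes (x axis); right, Bmpr1b in RPKM (y axis) against the log2 of summed oviduct markers plus 1 (x axis), with 1 point per library, coloured by group and shaped by batch. The lowest Bmpr2 values, 6.65 and 8.18 RPKM, lie at the left end, and the highest Bmpr1b value, 4.80 RPKM, at the right end; oviduct sums of the vehicle-only batch contain the constant of the batch correction.

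Grem1, the antagonist, was close to 0 everywhere and entered no test with the other genes. It stood at -0.0218, -0.0285, -0.00906 and -0.0368 RPKM in knockout libraries after progesterone and at -0.0283, 0.0206, 0.112 and 0.0213 RPKM in floxed ones, values below 0 being a product of the batch correction. In the mixed batch under vehicle it stood at -0.0368, -0.00796, -0.0293 and 0.00317 RPKM in knockout libraries and at 0.0663, 0.124, 0.138 and 0.185 RPKM in floxed libraries. These 2 groups did not overlap, and a single read was worth 0.0024 to 0.00806 RPKM. In the vehicle-only batch the means were 0.0562 ± 0.03 RPKM in knockout and 0.0544 ± 0.02 RPKM in floxed libraries (SD, n = 4 each), so the difference of the mixed batch was not seen there. These means contain the constant of the batch correction. Above the lowest value of that batch, Grem1 ranged from 0 to 0.0548 RPKM in knockout and from 0 to 0.0456 RPKM in floxed libraries. In the mixed batch under vehicle the same measure ranged from 0 to 0.0400 RPKM in knockout and from 0.103 to 0.221 RPKM in floxed libraries. Permuted within batches, the exact test gave p = 0.0163, unadjusted.

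Of the target genes, Id2 fell in the knockout under vehicle. It ranged from 46.5 to 64.2 RPKM in knockout libraries, with a median of 59.6 RPKM, and from 61.5 to 97.8 RPKM in floxed libraries, with a median of 68.7 RPKM. Within each batch all 4 knockout libraries lay below all 4 floxed ones, with means of 58.2 ± 8.21 RPKM in knockout and 73.1 ± 5.99 RPKM in floxed libraries in the mixed batch. The vehicle-only batch had 59.3 ± 1.09 RPKM in knockout and 72.0 ± 17.3 RPKM in floxed libraries. The log2 fold change was -0.29 ± 0.09 (limma adjusted p = 0.0196), and the exact permutation p of 0.000408 is the smallest that this test can give.

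Id2 stayed called without any 1 library, at limma adjusted p from 0.0118 to 0.0484. Of the 12 other alternatives it was called in 8 and not in 4. Among those 4 it was not called in the mixed batch alone, at -0.34 ± 0.12 (limma adjusted p = 0.0595), nor in the vehicle-only batch alone, at -0.25 ± 0.15 (limma adjusted p = 0.414), nor without the 5 libraries with oviduct or squamous markers, at -0.23 ± 0.09 (limma adjusted p = 0.0842). After progesterone Id2 stood at 63.1, 69.5, 61.5 and 83.3 RPKM in knockout libraries and at 65.7, 63.1, 69.1 and 76.1 RPKM in floxed libraries, which overlapped fully. Between genotypes this was a log2 fold change of 0.01 ± 0.13 (limma adjusted p = 0.966). The 2 genotype effects were not shown to differ, since the difference in response was 0.30 ± 0.16 (limma adjusted p = 0.389).

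Id1 and Id3, which like Id2 encode partners that keep basic helix-loop-helix factors from DNA, did not pass in any comparison. Id1 stood at 42, 47.2, 43.6 and 66.6 RPKM in knockout libraries after progesterone and at 50.4, 34.1, 42.2 and 27.2 RPKM in floxed ones. Its log2 fold change of knockout over floxed was 0.38 ± 0.17 after progesterone (limma adjusted p = 0.133) and 0.22 ± 0.12 under vehicle (limma adjusted p = 0.216). Without floxed progesterone library 1 the value after progesterone was 0.52 ± 0.18 and called (limma adjusted p = 0.0426), and without knockout progesterone library 8 it was 0.23 ± 0.17 and not called (limma adjusted p = 0.369). Library 8 held the highest Id1 and the highest Id3 of all 24 libraries. In that library the 1394 shortest tested genes were high by a median log2 of 0.40. Id1, with 1160 bases of exons, falls among them in length, and Id3, with 1791 bases, is longer than they are. The part of transcript length in these values was not tested.

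Id3 stood at 50.8, 61.5, 57.7 and 100.4 RPKM in knockout libraries after progesterone and at 69.4, 62.5, 77.0 and 58.1 RPKM in floxed ones. In the mixed batch under vehicle it stood at 52.3, 64.4, 57.4 and 57.1 RPKM in knockout libraries and at 41.7, 48.1, 58.0 and 60.3 RPKM in floxed libraries. Progesterone over vehicle was 0.38 ± 0.15 in the floxed group (limma adjusted p = 0.0735). It was called, at the same value with a smaller error of 0.11, when knockout progesterone library 8 was left out (limma adjusted p = 0.0184).

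Progesterone was also set against vehicle within each genotype. In the floxed group 0 of 9 passed in limma, 3 had an unadjusted p under 0.05 (Bmpr1a, Bmpr1b and Id3) and 0 had an exact permutation p under 0.05, while 23.0% of all tested genes were called. For Bmpr1b this value was 0.69 ± 0.31, and it was 0.25 ± 0.25 without floxed progesterone library 7 (limma adjusted p = 0.118 and 0.554). For Bmp2 the progesterone effect was 0.07 ± 0.17 in the floxed group and 0.14 ± 0.17 in the knockout. For Bmp4 it was 0.32 ± 0.23 in the floxed group and 0.08 ± 0.23 in the knockout. With 2 SE on either side these intervals still hold changes of 0.42 for Bmp2 and 0.78 for Bmp4 in the floxed group, so they do not show that the ligands were without response. Every progesterone library was in the mixed batch, and the fit shared 1 batch term between genotypes. Within that batch Bmp2 in the knockout averaged 9.41 RPKM after progesterone and 9.57 RPKM under vehicle. In the floxed group it averaged 5.38 RPKM after progesterone and 4.40 RPKM under vehicle. The sign of the small effect on Bmp2 in the knockout thus differed between the fit and these means. The difference in response was called for 0 of 9 genes in limma, with 0 at an unadjusted p under 0.05, where 2.49% of all tested genes were called.

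The other genes of the pathway were 56 symbols in 5 lists, of which 48 were tested. Under vehicle 12 were higher and 8 lower in the knockout, against 13.1% higher and 11.5% lower of all tested genes, with a median log2 fold change of 0.05 against -0.01 over all tested genes. After progesterone 7 were higher and 6 lower, against 12.3% higher and 7.06% lower of all tested genes, with a median of 0.04 against 0.03. The extracellular antagonists and modulators held the most calls of the 5 lists under vehicle, 5 higher and 4 lower of 13 tested. Of the 10 SMADs and their regulators, 2 were higher under vehicle and 0 in either direction after progesterone in limma.

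Follistatin (Fst), a secreted protein that binds activins and some BMPs, changed most. It stood at 1.39, 1.24, 1.77 and 1.62 RPKM in knockout libraries after progesterone and at 28.3, 20.4, 30.3 and 32.6 RPKM in floxed ones, a log2 fold change of -3.81 ± 0.25 (limma adjusted p = 5.86e-10). Under vehicle its means were 1.60 ± 0.61 RPKM in knockout and 4.04 ± 0.97 RPKM in floxed libraries (SD, n = 8 each). Progesterone over vehicle was 2.60 ± 0.24 in the floxed group, and the difference in response, knockout minus floxed, was -2.67 ± 0.31 (limma adjusted p = 2.32e-05). Pgr, the progesterone receptor gene, was itself lower in the knockout under vehicle (limma adjusted p = 0.000235). It averaged 23.2 ± 3.84 RPKM in knockout and 39.5 ± 4.18 RPKM in floxed vehicle libraries (SD, n = 8 each), without overlap. The part of Pgr in the difference in response was not tested.

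Wnt4, a secreted WNT ligand that acts with Bmp2 in the stroma, averaged 8.65 ± 4.03 RPKM in knockout and 1.59 ± 0.91 RPKM in floxed libraries after progesterone (SD, n = 4 each; limma adjusted p = 0.000416). Under vehicle its means were 8.01 ± 2.15 RPKM in knockout and 2.92 ± 2.21 RPKM in floxed libraries (SD, n = 8 each). Floxed vehicle library 12, at 8.18 RPKM, lay within the knockout range of 5.19 to 11.5 RPKM, and the floxed vehicle median was 2.02 RPKM. With the numbers on the labels as a replicate block, the log2 fold change of Wnt4 after progesterone was not called, at 1.52 ± 0.60 (limma adjusted p = 0.163). Bambi, a decoy receptor without kinase, averaged 5.27 ± 0.88 RPKM in knockout and 9.15 ± 0.91 RPKM in floxed libraries after progesterone (limma adjusted p = 6.07e-05).

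Under vehicle the smallest adjusted p belonged to Rgmb, a BMP co-receptor, with a mean of 9.11 ± 1.19 RPKM in knockout and 17.5 ± 2.43 RPKM in floxed libraries (SD, n = 8 each; limma adjusted p = 1.24e-07). Chrdl2, a chordin-like antagonist, averaged 13.6 ± 2.74 RPKM in knockout and 26.8 ± 2.38 RPKM in floxed libraries. Htra1, a secreted protease that can restrain TGF-beta family signals, was higher, at 98 ± 17.7 RPKM in knockout and 52.6 ± 5.36 RPKM in floxed libraries. Twsg1, which binds BMPs with chordin, had a log2 fold change of 0.33 ± 0.05, and Bmp1, a protease that cuts chordin, one of 0.37 ± 0.06 under vehicle and 0.45 ± 0.09 after progesterone. In the vehicle-only batch alone neither passed, at 0.25 ± 0.08 for Twsg1 and 0.40 ± 0.11 for Bmp1 (limma adjusted p = 0.0982 and 0.06).

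Progesterone itself called 6 of the 48 higher and 11 lower in the floxed group, and 3 higher and 5 lower in the knockout. Of all tested genes, 7.84% were higher and 15.1% lower in the floxed group, and 4.00% higher and 4.66% lower in the knockout. Beside Fst, the floxed group had Acvrl1, a type I receptor of endothelium, at 0.83 ± 0.12, Fstl3, a follistatin-like protein, at 0.94 ± 0.17, Bambi at 0.55 ± 0.11 and the osteoblast factor Sp7 at -0.87 ± 0.16. The knockout had Twsg1 at -0.48 ± 0.06, the ligand Gdf5 at -1.0 ± 0.18, chordin (Chrd) at 0.85 ± 0.17, the homeobox gene Msx1 at 0.65 ± 0.15, Smad1 at -0.26 ± 0.07 and Rgmb at 0.46 ± 0.12. Without the 5 libraries with oviduct or squamous epithelium markers, Chrd (0.79 ± 0.22), Msx1 (0.59 ± 0.20), Smad1 (-0.21 ± 0.09) and Rgmb (0.54 ± 0.15) were not called in the knockout (limma adjusted p from 0.0695 to 0.249). Single libraries ended calls of Smad1 and Rgmb as well. Smad1 was not called without progesterone library 6 or 8 or vehicle library 9 of the knockout, at -0.25 to -0.22, and Rgmb not without progesterone library 4 or 5 or vehicle library 9, at 0.39 to 0.43.

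**Figure D5:**
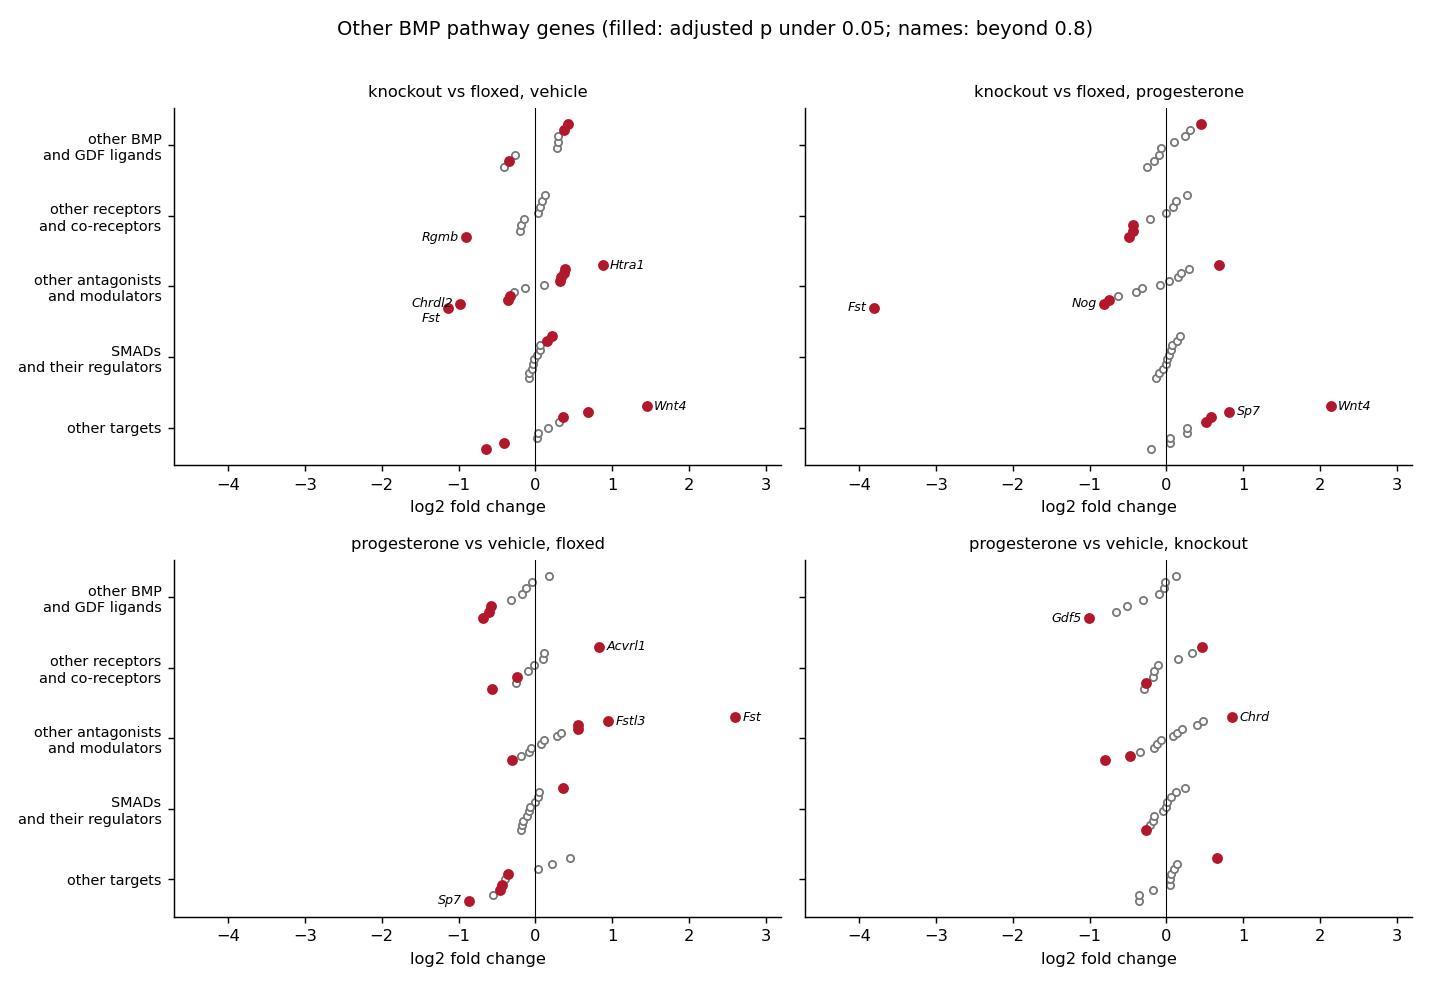
Log2 fold change (x axes) of the tested other BMP pathway genes but 1, which is not shown, 1 point per gene, in 5 lists by role (y axes) and 4 comparisons; filled red points passed an adjusted p of 0.05, and those beyond 0.8 are named. Fst lies furthest from 0 of all, at -3.81 between genotypes after progesterone, and the SMADs stay close to 0.

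The genes whose pattern was most like that of each member over the 24 libraries were named by Pearson correlation of batch-centred log2 values, as a description. The libraries share groups and batches, so genes that move with genotype are alike on that ground. For Bmp2 they were Cdh3 (r = 0.904), which encodes P-cadherin, with Rhof and Slc7a3. For Bmp4 they were Txlnb (r = 0.919), Cutal and Plcb4, and for Bmpr1a they included Dab1 (r = 0.875) and Trps1. Bmpr2 was most like Vps13d (r = 0.934), Zzef1 and Ep300. Bmpr1b was most like Kif9 (r = 0.841), Kcne3 and Ugt1a1. Bmpr2 was lowest in knockout progesterone library 8 and knockout vehicle library 13, where long genes were low. Bmpr1b was highest in the 3 libraries with the highest summed oviduct markers. The part of these libraries in the correlations was not tested. For Bmp7 the top 3 included Smad7 (r = 0.738), the inhibitory SMAD, beside Klhl21 and Zbtb21. Id1 was most like Paf1 (r = 0.856), Stard10 and Klf2, and Id2 like Tsnax (r = 0.801), Krt10 and Anxa11. For Id3 they were Tmem128 (r = 0.777), Snhg8 and Id1 itself (r = 0.775), the only pair of members among these lists.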

How the data were processed

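RNA of 24 uterus libraries was sequenced with TruSeq kits, per the labels' protocols. The submitters' processing notes name cutadapt 2.7, TopHat, Partek and mm10. For counting, annotation, strand and batch correction, no tool or setting was stated (not given in the sources used here). As for units, the 1 table is handled as a score: the authors deposited gene-level RPKM that they had corrected for batch, and 6.66% of its values lie below 0. For 13688 of 13688 genes with a mean above 1, vehicle means did not differ between batches (relative tolerance 0.0001), as when 1 constant per gene and batch is added. Differences within a batch keep the RPKM scale, while ratios of low genes can change. Antisense or overlapping transcripts cannot be told apart without the strand setting.

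The smallest steps among low values gave the relative worth of 1 read and so the depth (146 or more genes per library), which had a median of 72700000 reads in the mixed and 49850000 in the vehicle-only batch. Values below 0 were set to 0 (0.297% of tested values), and log2(value + 0.5) was fitted for the 14284 genes that reached 1 RPKM in 4 or more libraries. The pseudocount understates changes of low genes. In limma (version 3.58.1 in R 4.3.3, moderated with a trend and robustly) 1 model held 4 groups and a batch term, with 19 residual degrees of freedom. All p-values are two-sided, and limma's were adjusted by Benjamini-Hochberg over every tested gene. Single members were also compared on RPKM with exact permutation tests, unadjusted, within batches. The fits were tested on simulated data. The alternatives were other pseudocounts, filters, normalization, batch handling, a replicate block, weights per library and leaving out libraries.

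The members and lists were chosen with earlier results of these data known. All 10 members are described whatever their result. Of the other pathway genes, up to 6 called per comparison with the smallest adjusted p are named, and for each tested member the 3 genes most correlated with it. Genes that these rules pick but the text does not name are counted and otherwise not reported here. Coordinates and lengths are from GENCODE M21 (GRCm38), and promoters from RefSeq.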

Additional observations from a re-analysis of the deposited data

Results flagged for a closer look

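In 6 of 40 groups of 1 gene, a single library stood apart from the others of its group by Dixon's criterion, which chance meets in about 1 in 20 groups. Floxed vehicle library 7 had 8.92 RPKM of Bmp2, above the other 7 of its group. Floxed vehicle library 12 had 5.57 RPKM of Bmp4, below the rest of its group. Knockout vehicle library 12 had 2.81 RPKM of Bmpr1b and floxed progesterone library 7 had 4.80 RPKM of Bmpr1b, and both had high oviduct markers. Knockout progesterone library 8 had 6.65 RPKM of Bmpr2, and long genes were low in that library. Knockout vehicle library 9 had 46.5 RPKM of Id2, the lowest of all 24 libraries, and the highest summed squamous epithelium markers, 63.8 RPKM. The part of these markers and of transcript length in the values was not tested.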

How the results depend on the processing

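Across the alternatives no called member changed sign. Of 1579 refitted member values, 1518 kept their side of the threshold, 31 lost the call and 30 gained one. With the numbers on the labels as a replicate block, 0 members were called between genotypes after progesterone, 1 for progesterone in the floxed group and 0 in the knockout, and 10, 4, 0 and 1 pathway genes were called under vehicle, between genotypes after progesterone, for progesterone in the knockout and for the difference in response. Over all 14284 tested genes that block called 2435 under vehicle and 822 between genotypes after progesterone. It called 3038 for progesterone in the floxed group, 162 in the knockout and 26 for the difference. Without the block these were 3516, 2767, 3280, 1238 and 355. Median correlation was 0.127 for same-numbered pairs (6 of 11 over 0.1) and 0.0133 for others (73 of 197), which did not settle pairing. With the replicate block Bmp4 under vehicle was at -0.20 ± 0.18 (limma adjusted p = 0.471).

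Members called for progesterone in the floxed group numbered 0 in the report, 1 without a filter, 2 with quantile normalization, 2 without a batch term, 3 with weights per library and 2 without knockout progesterone library 8 and knockout vehicle library 13, an alternative chosen after seeing the data. Of all tested genes 3280 were called there in the report and 3588 of 22943 without a filter. The other settings called 3003, 4203, 6276 and 3732, in the same order. Weights per library called 7 members under vehicle, 3 for progesterone in the knockout and 1 for the difference in response, and 23, 26 and 20 pathway genes between genotypes after progesterone, for progesterone in the knockout and for the difference. Over all 14284 tested genes these weights called 6500 under vehicle and 7123 between genotypes after progesterone. They called 5965 for progesterone in the knockout and 4122 for the difference. The vehicle-only batch alone called 0 members and 7 pathway genes, and 1085 of 13732 tested genes. Without a batch term 14 pathway genes were called for progesterone in the knockout, and 1909 of all tested genes. Without the 5 libraries with oviduct or squamous markers, 0 members were called for progesterone in the knockout, 11 pathway genes for progesterone in the floxed group, 2 in the knockout and 1 for the difference, which was also 1 with a pseudocount of 1, without a filter and with quantile normalization. Without the 5 libraries, 2022 of 14140 tested genes were called for progesterone in the floxed group, 383 in the knockout and 176 for the difference. For the difference a pseudocount of 1 called 358, no filter 451 and quantile normalization 357 of all tested genes.

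Leaving out 1 library at a time called 2 to 4 members under vehicle, 2 to 3 between genotypes after progesterone, 0 to 2 for progesterone in the floxed group, 1 to 1 in the knockout and 0 to 0 for the difference. Of all tested genes, 3099 to 3812, 2129 to 3242, 2374 to 4099, 863 to 1339 and 204 to 715 were called, in that order. The pathway genes called then ranged from 14 to 22, from 11 to 15, from 10 to 19, from 5 to 10 and from 1 to 3 in the same order of comparisons. The 10 came without floxed progesterone library 9, the 5 without knockout progesterone library 4, 5 or 8, and the 1 without knockout progesterone library 4 or 5, knockout vehicle library 11b or 12, floxed progesterone library 1 or 9, or floxed vehicle library 2, 3 or 10. For members, 2 genes were called for progesterone in the floxed group without knockout progesterone library 8. Quantile normalization moved the split of all called genes to 1470 higher and 1319 lower between genotypes after progesterone, against 1758 and 1009 without it, and to 1395 higher and 1608 lower for progesterone in the floxed group, against 1120 and 2160. With no filter Grem1 was tested under vehicle, at a log2 fold change of -0.16 ± 0.05 (limma adjusted p = 0.0313). Grem1 averaged 0.0562 RPKM in knockout and 0.0544 RPKM in floxed libraries of the vehicle-only batch, so that value rests on the mixed batch, and it lies on the log2(value + 0.5) scale. The effect of depth on single genes was not tested, and no cause was tested for any of these shifts.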
